A study of Mus musculus with 6 samples.

Results

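The genes described here encode the machinery that copies DNA in S phase, together with the enzymes that supply its nucleotides and the factors that rebuild chromatin on the new strands. There were 42 of them, chosen by symbol from a fixed list, among 19561 genes tested. All 42 were found in the 6 deposited files and were above 0 in every library. RNA was sequenced from cells that were sorted out of cortices of C57BL/6J mouse embryos. Heterozygous Tbr2(Eomes)-GFP mice had been crossed with homozygous DCX-mRFP mice, and only embryos with both reporters were used: GFP under Tbr2, a transcription factor of intermediate progenitors, and mRFP under doublecortin (Dcx), which binds microtubules in young neurons. The reporters, and no other marker, defined the populations. The IPN libraries held cells positive for both colors (neurons derived from intermediate progenitor cells), and the non-IPN libraries held cells with red fluorescence alone. There was 1 library of each population per embryonic day (E): E13.5, E15.5 or E16.5. At E15.5 each library came from 1000000 cells. At E13.5 and E16.5 each came from 10000 cells and the transcriptome was amplified first, so cell number and amplification changed together with age and levels at E15.5 were not tested against the other days. The labels do not say how many embryos were pooled.

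As background, origins of replication are licensed in G1 when the origin recognition complex, Cdc6 and Cdt1 load the ring-shaped Mcm2 to Mcm7 helicase onto DNA, and geminin (Gmnn) later blocks Cdt1 so that origins fire only once. In S phase, Mcm10 and the GINS proteins help turn the loaded rings into active helicases, DNA polymerase alpha with primase starts each strand, and polymerases delta and epsilon extend it, held to DNA by the Pcna clamp. Most of these genes are transcribed under E2F factors in dividing cells and are shut down as cells leave the cycle, which in the cortex happens when progenitors give rise to postmitotic neurons.

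Levels are given in parts per 1000000 (ppm) of the column total of the deposited file. Log2 ratios, changes and fits use another scale, the deposited value plus 1 with no further scaling. Ratios of IPN over non-IPN on that scale lie above ratios of ppm levels by about 0.15, 0.05 and 0.22 log2 units on the 3 days in turn. Column totals ran from 12583677 to 32538995, and since the deposited values had been scaled, the true depth is unknown. The neuronal genes Dcx and Tubb3 were present in all 6 libraries, at 855 to 4640.8 and at 114 to 2536.1 ppm. The non-IPN library of E13.5 stood apart from the others. Hemoglobin genes took 4.92% of its total and at most 0.0275% of any other, and its summed radial glia markers (12 genes) reached 4876.3 ppm against 817.0 to 1638.6 elsewhere. Microglia and macrophage markers (12 genes) summed to 494.0 to 978.0 ppm in non-IPN and 2.2 to 6.3 in IPN, where 1 of the 12 was at 0 at E13.5 and 5 at E16.5. Markers of endothelial cells and pericytes, meninges and oligodendrocyte precursors summed to at most 9.1, 7.4 and 2.3 ppm in any library. Projection neuron markers (8 genes) summed to 2820.6 to 4968.8 ppm in IPN and 403.2 to 2429.7 in non-IPN, and interneuron markers (10 genes) to 30.4 to 63.3 and 1385.2 to 4156.9. Markers of ganglionic eminence progenitors (7 genes) summed to 26.8 to 36.7 ppm in IPN and 386.8 to 1709.2 in non-IPN. In bulk libraries such as these, fewer cells of a type and less RNA per cell cannot be told apart.

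The summed level of the 42 replication genes was highest in non-IPN at E13.5. It was 5536.7 ppm there against 1954.1 in IPN of the same day, 2.83 times as high. The sums were 1453.3 in non-IPN and 1120.9 in IPN at E15.5, a ratio of 1.3. They were 1341.0 and 1221.3 at E16.5, a ratio of 1.1. Of the 42 genes, 35 had their own highest level in that library, against 23.0% of all genes tested. The exceptions were Pola1, Pold1, Pold2, Rpa1 and Dnmt1, highest in non-IPN at E15.5, Chaf1b, highest in IPN at E15.5, and Rpa3, highest in IPN at E13.5.

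**Figure D1:**
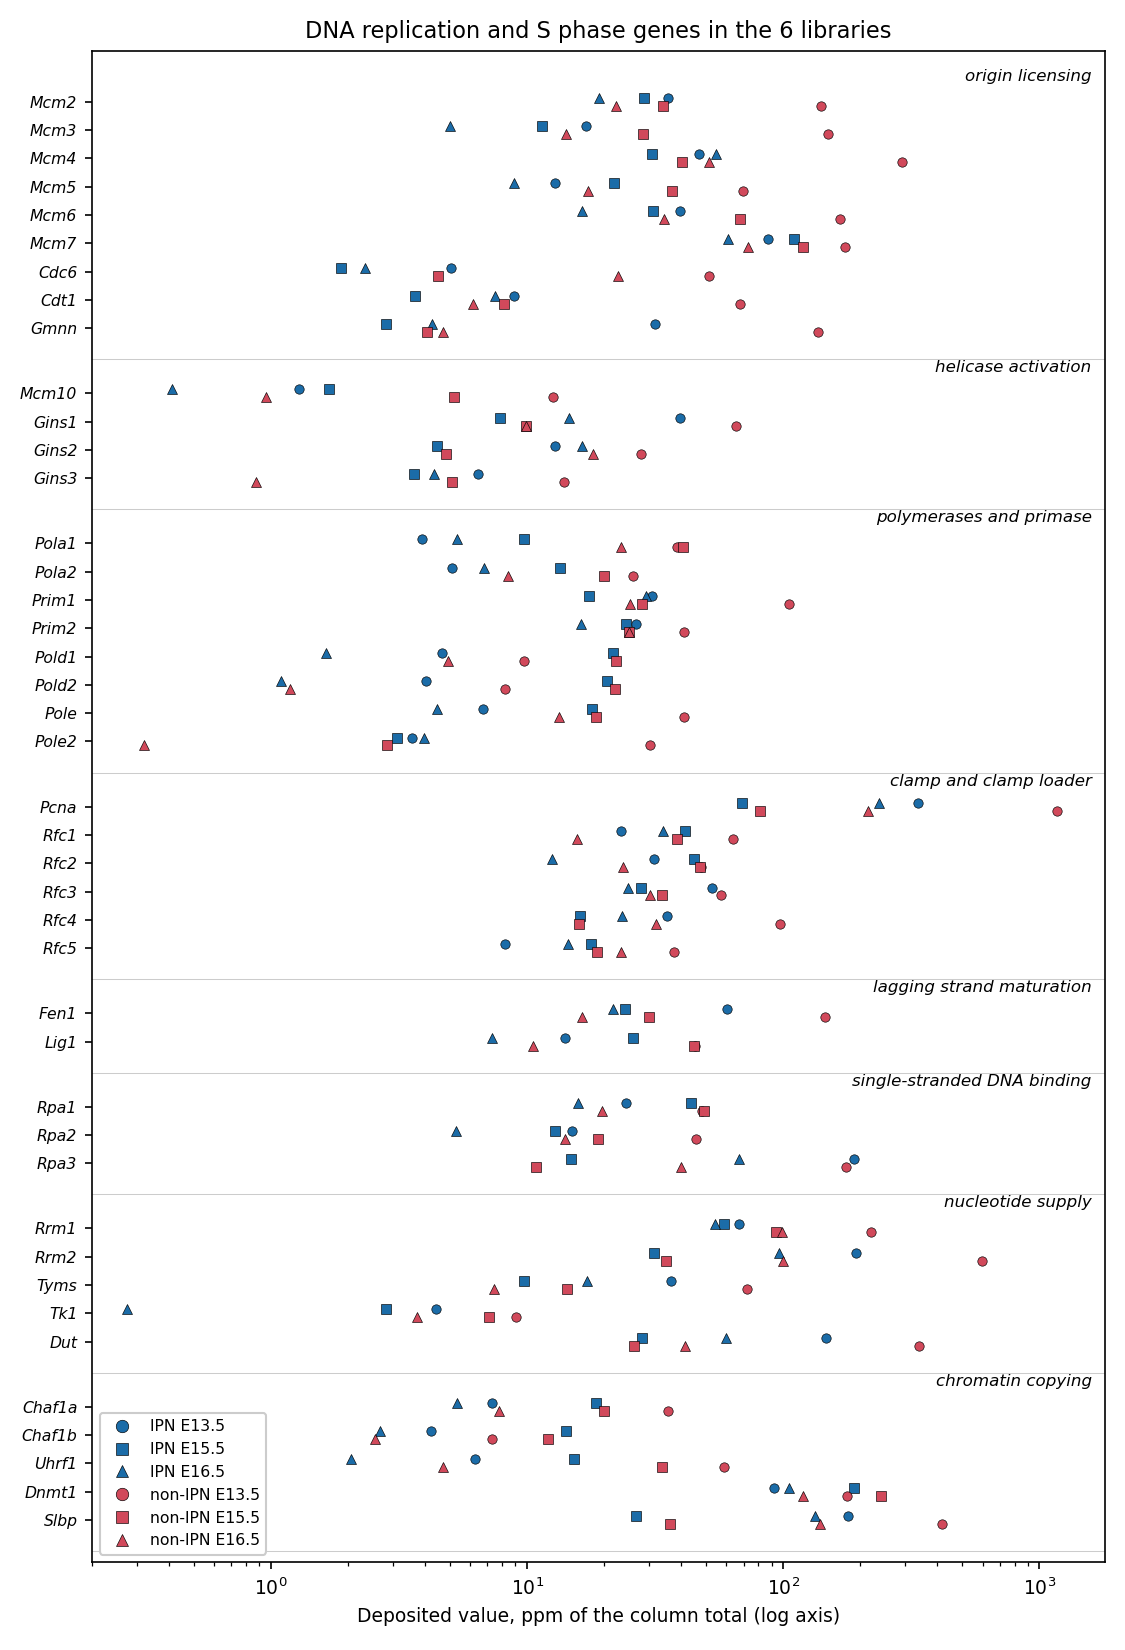
Deposited value in ppm of the column total (log axis) for each of the 42 genes, grouped by role, in IPN (blue) and non-IPN (red), with circles for E13.5, squares for E15.5 and triangles for E16.5. Each point is 1 library, and the red circle is the rightmost point for 35 of the 42 genes.

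The first comparison asked how the replication genes differ between the populations. Mcm3, Mcm6 and Cdc6, which license origins, and Pola1, the catalytic subunit of polymerase alpha, were lower in IPN, and no member was called higher. That is 4 of 42 members (9.52%), against 2.41% of all genes called lower and 0.982% called higher (limma with age as a factor, adjusted p under 0.05). The median log2 difference of the members, IPN minus non-IPN, was -0.55, beside -0.02 over all genes tested, and 37 of 42 (88.1%) were negative, beside 52.0%. At an unadjusted p under 0.05, 12 members were lower and 1 (Rpa3) was higher. Together that is 31.0% of members, beside 13.6% of all genes in either direction. The 3 days are the only replicates of this difference.

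Mcm3, a subunit of the helicase ring, was at 16.9, 11.4 and 4.99 ppm in IPN, in order of day, and at 149, 28.4 and 14.2 in non-IPN. Mcm6, another subunit of the ring, was at 39.4, 30.9 and 16.4 ppm in IPN and at 166, 67.7 and 34.3 in non-IPN. For both genes IPN was the lower library on each day, while the ranges of the populations over the days overlapped. The fitted log2 differences were -1.85 ± 0.42 (SE, adjusted p = 0.0381) for Mcm3 and -1.28 ± 0.29 (adjusted p = 0.038) for Mcm6.

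Cdc6, which loads the ring, was at 5.04, 1.87 and 2.33 ppm in IPN and at 51.4, 4.5 and 22.7 in non-IPN. Pola1 was at 3.88, 9.74 and 5.33 ppm in IPN and at 38.4, 40.6 and 23.3 in non-IPN. The 3 IPN libraries lay below all 3 non-IPN libraries for Pola1, while for Cdc6 the highest IPN level, 5.04, was above the lowest non-IPN level, 4.5. Log2 differences were -2.47 ± 0.57 for Cdc6 (adjusted p = 0.0423) and -2.35 ± 0.42 for Pola1 (adjusted p = 0.0109). Of the 4, Pola1 was called without the E13.5 pair too.

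The members' median log2 ratio was most negative on the first day. It was -1.47 at E13.5, then -0.27 and -0.05 on the later days, while the median over all genes was 0 on each day. At E13.5, 40 of 42 members (95.2%) were lower in IPN, against 48.5% of all genes. Of the 42, 27 (64.3%) were lower by at least 1 on the log2 scale, against 29.3% of all genes. At E15.5, 33 (78.6%, all genes 45.5%) were lower and 8 (19%) by at least 1, against 15.6% of all genes. At E16.5, 23 (54.8%, all genes 42.4%) were lower and 7 (16.7%) by at least 1, against 19.2%. Among the 36 members with a mean of at least 10 ppm, the share lower by at least 1 was 69.4% at E13.5 and 16.7% on both later days, against 11.8%, 6.18% and 7.68% of the 9349 genes at that level. On all 3 days 18 members (42.9%) were lower in IPN, against 15.2% of all genes. In ppm, a scale compared after the data were seen, 41, 36 and 29 members were lower on the days in turn (all genes 54.9%, 50.8% and 53.5%), and 28 (66.7%) on all 3 days, against 20.8% of all genes. The members' median log2 ratios in ppm were -1.62, -0.32 and -0.27, and those of all genes above 0 in both libraries were -0.15, -0.08 and -0.2. Rpa3, the small subunit of the protein that coats single-stranded DNA, was the only member higher in IPN on all 3 days, and its fitted difference of 0.58 ± 0.26 did not pass (adjusted p = 0.358).

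**Figure D2:**
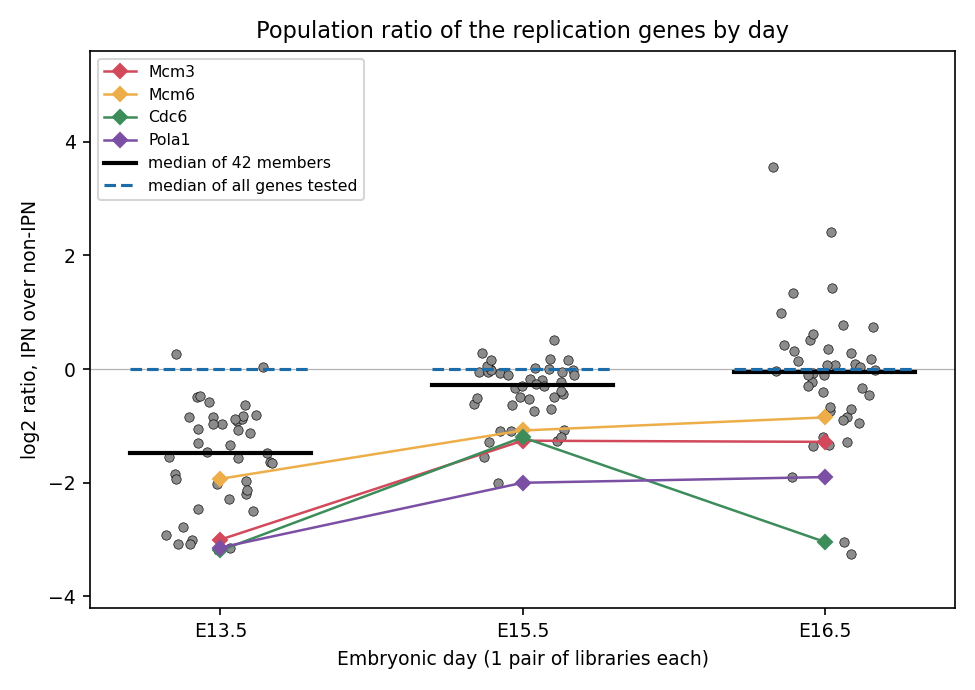
Log2 ratio of IPN over non-IPN (deposited values plus 1) for the 42 replication genes (gray points) on each embryonic day, 1 pair of libraries per day; points are spread sideways for legibility. The black bar is the members' median (-1.47, -0.27 and -0.05), the dashed line is the median of all genes tested, and colored lines join the 4 genes called lower in IPN.

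By role, the licensing genes (Mcm2 to Mcm7, Cdc6, Cdt1 and Gmnn) had the most negative median, -1.12, with 9 of 9 negative and 3 called. The median was -0.68 for 8 polymerase and primase genes, -0.56 for Fen1 and Lig1, -0.47 for 5 genes of nucleotide supply, -0.45 for 6 clamp and clamp loader genes, -0.44 for 5 genes of chromatin copying, -0.35 for 3 Rpa genes and -0.18 for 4 genes of helicase activation. At E13.5 every licensing, helicase activation, polymerase, lagging strand, nucleotide and chromatin member was lower in IPN. The members not lower there were Rfc3, a clamp loader subunit (log2 ratio 0.03), and Rpa3 (0.26); in ppm Rfc3 was lower in IPN, at 52.7 against 57, and Rpa3 was not. Other members with large fitted differences that did not pass were Mcm10 (-1.84 ± 0.76, adjusted p = 0.316), thymidine kinase Tk1 (-1.81 ± 0.71, adjusted p = 0.288) and Uhrf1, which guides DNA methylation after replication (-1.7 ± 0.51, adjusted p = 0.13).

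Of polymerase alpha and primase, Pola1 alone passed the test. The accessory subunit Pola2 had a fitted difference of -0.93 ± 0.5 (adjusted p = 0.479), the primase subunit Prim1 of -0.61 ± 0.38 (adjusted p = 0.557) and Prim2 of -0.29 ± 0.31 (adjusted p = 0.769). Differences between subunits were not tested. The other replicative polymerases had Pole, the epsilon catalytic subunit, at -1.27 ± 0.5 (adjusted p = 0.282) and Pold1, the delta catalytic subunit, at -0.74 ± 0.51 (adjusted p = 0.603). Ribonucleotide reductase, which makes deoxynucleotides, had its large subunit Rrm1 at -0.95 ± 0.26 (adjusted p = 0.0877) and its small subunit Rrm2 at -0.47 ± 0.31 (adjusted p = 0.588).

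The calls between populations depended on single pairs and on the fit. Without the E13.5 pair 1 member was called (Pola1) and the median was -0.14; without the E16.5 pair 3 were called (Mcm3, Mcm6 and Pola1; median -0.95), and without the E15.5 pair none (9 at an unadjusted p under 0.05; median -0.72), when 53 of all genes were called lower. Without the E13.5 pair 29 of 42 members were negative. With no replicate block, that is without age in the model, none was called and none had an unadjusted p under 0.05. Hemoglobin genes and the summed radial glia markers stood high in the E13.5 non-IPN library together with the replication genes, and microglia, interneuron and eminence progenitor genes in all 3 non-IPN libraries. Sox2, a transcription factor of neural progenitors and the 1 radial glia marker of 12 that was called, was at 21.8, 12.7 and 12.7 ppm in IPN by day and at 221, 283 and 146 in non-IPN (-3.64 ± 0.29, adjusted p = 0.000144). Their part in the difference was not tested.

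Promoter sequences of the 4 genes called lower in IPN are shown, and each carries letters of the E2F motif. They are the RefSeq windows from 250 bases before to 50 bases after the annotated start, in build GRCm38.p6 (the authors' files used mm9): chr1:20820263-20820562 for Mcm3, chr1:128359656-128359955 for Mcm6 and chrX:93632106-93632405 for Pola1, all on the minus strand, and chr11:98907901-98908200 on the plus strand for Cdc6. Each is written 5′ to 3′ on the strand of the gene, and capitals mark the E2F matches.
Mcm3: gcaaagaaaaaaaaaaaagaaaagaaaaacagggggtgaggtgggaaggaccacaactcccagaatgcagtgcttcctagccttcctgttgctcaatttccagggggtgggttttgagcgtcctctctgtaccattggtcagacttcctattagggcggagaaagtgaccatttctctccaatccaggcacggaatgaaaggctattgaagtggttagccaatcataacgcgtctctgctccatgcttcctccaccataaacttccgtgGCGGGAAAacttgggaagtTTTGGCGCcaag
Mcm6: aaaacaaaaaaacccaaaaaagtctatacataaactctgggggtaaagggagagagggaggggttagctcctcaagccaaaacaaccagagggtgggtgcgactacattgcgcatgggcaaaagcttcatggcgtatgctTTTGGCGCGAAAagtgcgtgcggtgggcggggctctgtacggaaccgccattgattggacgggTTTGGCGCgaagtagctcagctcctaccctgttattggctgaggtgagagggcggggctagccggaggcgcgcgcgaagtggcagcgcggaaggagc
Cdc6: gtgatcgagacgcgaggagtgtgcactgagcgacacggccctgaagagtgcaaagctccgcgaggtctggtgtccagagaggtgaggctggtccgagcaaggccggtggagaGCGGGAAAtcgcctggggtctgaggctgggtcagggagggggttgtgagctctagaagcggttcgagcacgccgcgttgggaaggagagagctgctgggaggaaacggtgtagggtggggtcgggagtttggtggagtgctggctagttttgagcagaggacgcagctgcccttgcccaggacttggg
Pola1: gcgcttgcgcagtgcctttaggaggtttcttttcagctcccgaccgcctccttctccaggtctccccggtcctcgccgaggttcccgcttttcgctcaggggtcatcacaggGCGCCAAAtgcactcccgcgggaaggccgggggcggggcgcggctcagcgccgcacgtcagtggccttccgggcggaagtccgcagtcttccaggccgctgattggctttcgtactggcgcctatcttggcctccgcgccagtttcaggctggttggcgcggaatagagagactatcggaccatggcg

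The E2F motif was searched as TTTCGCGC, TTTGGCGC, TTTCCCGC or TTTGCCGC on either strand. Mcm3 held 2 matches, starting 20 and 39 bases into the transcript counting from 1. Mcm6 held 3, starting 110, 106 and 47 bases before the start, of which the first 2 overlap in 1 run of capitals. Cdc6 and Pola1 held 1 each, both starting 138 bases before the start. A match is a description of the letters and no evidence of binding.

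The same letters were frequent among the members as a whole. Of the 42 members, 35 had an entry in the promoter table, with 43 windows, and 14 windows of 14 genes (32.6% of windows) held an E2F match, against 2.98% of 17107 windows of all genes tested. The 14 genes were Cdc6, Cdt1, Dnmt1, Gins3, Lig1, Mcm3, Mcm5, Mcm6, Mcm7, Pola1, Pold1, Pole2, Rfc3 and Uhrf1. Their median population difference was -0.99, that of the 21 members with a window but no match was -0.5, and all 4 called members were among the 14. The median change with age was -1.5 with and -1.6 without a match. Of the members called lower at E16.5, 3 had a match, 7 had a window but no match, and 2 had no entry. Differences between these groups were not tested. Genes named here with no match in these windows included Pcna, Mcm2, Rrm2 and Rpa3. Gins1, Gins2, Gmnn, Mcm4, Pole, Prim2 and Rfc2 had no entry.

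Other motifs were searched for comparison. The CCAAT box (CCAAT) was in 58.1% of the members' windows and 38.1% of those of all genes tested, and the GC box (GGGCGG) in 69.8% and 50%. The CHR element, searched as TTTGAA, which is known from promoters of late cell cycle genes, was in 11.6% and 14.6%. In a list of 24 mitosis genes, 21 had windows, and the CHR was in 72.7% of 22 windows and an E2F match in 4.55%. Each was searched on both strands, and matches of different motifs may overlap.

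**Figure D3:**
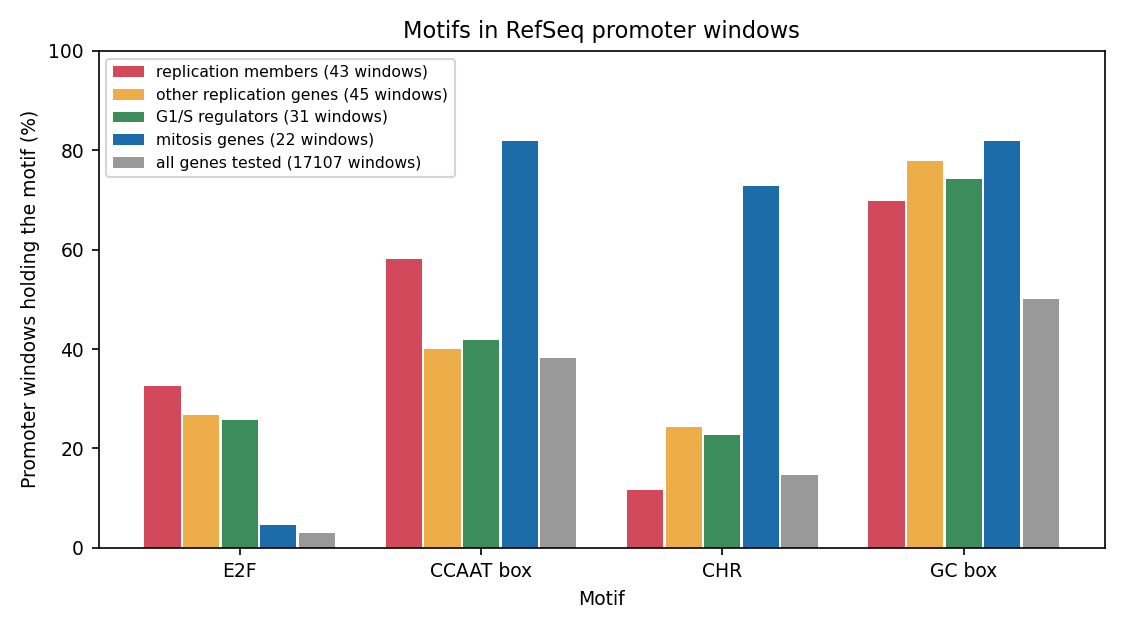
Share (percent) of RefSeq promoter windows that hold the letters of each motif on either strand, for the replication genes, 3 related lists and all genes tested. E2F letters stand in 32.6% of the replication windows and 4.55% of the mitosis windows, and the CHR in 11.6% and 72.7%.

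The second comparison set E16.5 against E13.5, the pair of days with matched cell number and amplification. With 1 library per population and day, the populations were the only replicates of an age. A batch effect shared by the libraries of a day cannot be told apart from age. Replication genes fell with age: 12 of 42 members (28.6%) were called lower at E16.5, against 2.26% of all genes, and none higher, against 3.76%. All 42 fitted changes were negative (41 with values scaled to the column total), beside 49.8% of all genes, with a median of -1.4 on the log2 scale beside 0. The 12 were Mcm2, Mcm3, Mcm6, Gmnn, Gins1, Pcna, Fen1, Rpa3, Rrm2, Tyms, Dut and Uhrf1. The median change was -0.76 in IPN, where 34 of 42 were lower at E16.5 (40.5% of all genes), and -2.18 in non-IPN, where 42 were (46.7% of all genes). At an unadjusted p under 0.05, 31 members (73.8%) were lower and 0 higher, beside 21.6% of all genes in either direction. Intermediate progenitor markers were lower at E16.5 too, with 6 of 9 called (66.7%), and their part in the fall was not tested. Between the populations 2 of these 9 markers (22.2%, beside 0.982% of all genes) were called higher in IPN, Neurod1 and Insm1.

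The licensing genes gave 4 of the 12 calls. Gmnn, the inhibitor of Cdt1, was at 31.7 and 4.24 ppm in IPN on these days and at 137 and 4.69 in non-IPN. Both E13.5 libraries lay above both E16.5 libraries, and the fitted change of -3.98 ± 0.62 (adjusted p = 0.00723) was the largest of the 42. At E15.5, in libraries made another way, Gmnn was at 2.8 in IPN and 4.08 in non-IPN. Mcm2 was at 35.5 and 19 ppm in IPN and at 141 and 22.2 in non-IPN, a change of -1.9 ± 0.45 (adjusted p = 0.0371). The changes were -2.68 ± 0.51 for Mcm3 (adjusted p = 0.0152) and -1.88 ± 0.35 for Mcm6 (adjusted p = 0.0147), whose levels are given above. Both were lower at E16.5 within each population, and the E16.5 non-IPN level was close to the E13.5 IPN level.

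Genes of nucleotide supply gave 3 calls of 5 members. Rrm2 was at 192 and 96.4 ppm in IPN and at 595 and 99.5 in non-IPN, a change of -1.91 ± 0.38 (adjusted p = 0.0181). Dut, which removes dUTP from the nucleotide pool, was at 147 and 59.5 in IPN and at 339 and 41.4 in non-IPN (-2.28 ± 0.4, adjusted p = 0.0117). Tyms, which makes thymidylate, was at 36.4 and 17.2 in IPN and at 72.1 and 7.39 in non-IPN (-2.29 ± 0.56, adjusted p = 0.0399). For these 3 genes the E13.5 libraries of both populations lay above both E16.5 libraries. Dut and Tyms stood higher in non-IPN than in IPN at E13.5 and lower at E16.5. Rrm1 (-0.85 ± 0.31, adjusted p = 0.147) and Tk1 (-2.6 ± 0.87, adjusted p = 0.113) did not pass.

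At the fork, Fen1, the nuclease that trims Okazaki fragments, was at 60.2 and 21.6 ppm in IPN and at 145 and 16.4 in non-IPN (-2.42 ± 0.42, adjusted p = 0.0115). Its partner Lig1, the ligase that seals them, was at 14 and 7.32 in IPN and at 45.4 and 10.5 in non-IPN (-1.63 ± 0.45, adjusted p = 0.062). Rpa3 was at 189 and 67.4 in IPN and at 175 and 39.7 in non-IPN (-1.93 ± 0.32, adjusted p = 0.00905). Of these genes Rpa3 was the one with nearly equal levels in the populations at E13.5. Rpa1 and Rpa2, the larger subunits of the same complex, had fitted changes of -1.08 ± 0.37 (adjusted p = 0.118) and -1.71 ± 0.47 (adjusted p = 0.0626).

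The sliding clamp Pcna was at 336 and 236 ppm in IPN and at 1175.2 and 214 in non-IPN, a change of -1.6 ± 0.41 (adjusted p = 0.0459). Its call did not hold with scaling to the column total (-1.48, limma adjusted p = 0.0623), where 9 members were called. Its level at E13.5 in non-IPN was far above the other 3. None of the 5 clamp loader genes Rfc1 to Rfc5 was called, with changes from -1.28 ± 0.36 (Rfc2, adjusted p = 0.0637) to -0.05 ± 0.53 (Rfc5, adjusted p = 0.992). Gins1, of the GINS complex, was at 39.6 and 14.6 in IPN and at 65.6 and 9.93 in non-IPN (-2.19 ± 0.48, adjusted p = 0.0259). Uhrf1 was at 6.27 and 2.05 in IPN and at 58.8 and 4.69 in non-IPN (-2.72 ± 0.63, adjusted p = 0.0325).

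Polymerase and primase genes gave no call in 8. Their changes ran from -3.17 ± 1.27 for Pole2 (adjusted p = 0.179) to -0.25 ± 0.51 for Pola1 (adjusted p = 0.811). Pola1, lower in IPN at every age, was at 3.88 and 5.33 ppm in IPN at E13.5 and E16.5 and at 38.4 and 23.3 in non-IPN. The maintenance methyltransferase Dnmt1 also did not pass (-0.31 ± 0.28, adjusted p = 0.573), and was at 92.1 and 105 in IPN and at 178 and 119 in non-IPN. Histone mRNA-binding Slbp was at 179 and 133 in IPN and at 418 and 139 in non-IPN (-1.12 ± 0.32, adjusted p = 0.0711). Mcm7 was at 87.1 and 60.8 in IPN and at 174 and 72.8 in non-IPN (-1.0 ± 0.3, adjusted p = 0.0797), and Prim1 at 30.6 and 29.1 and at 105 and 25.2 (-1.18 ± 0.46, adjusted p = 0.172).

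**Figure D4:**
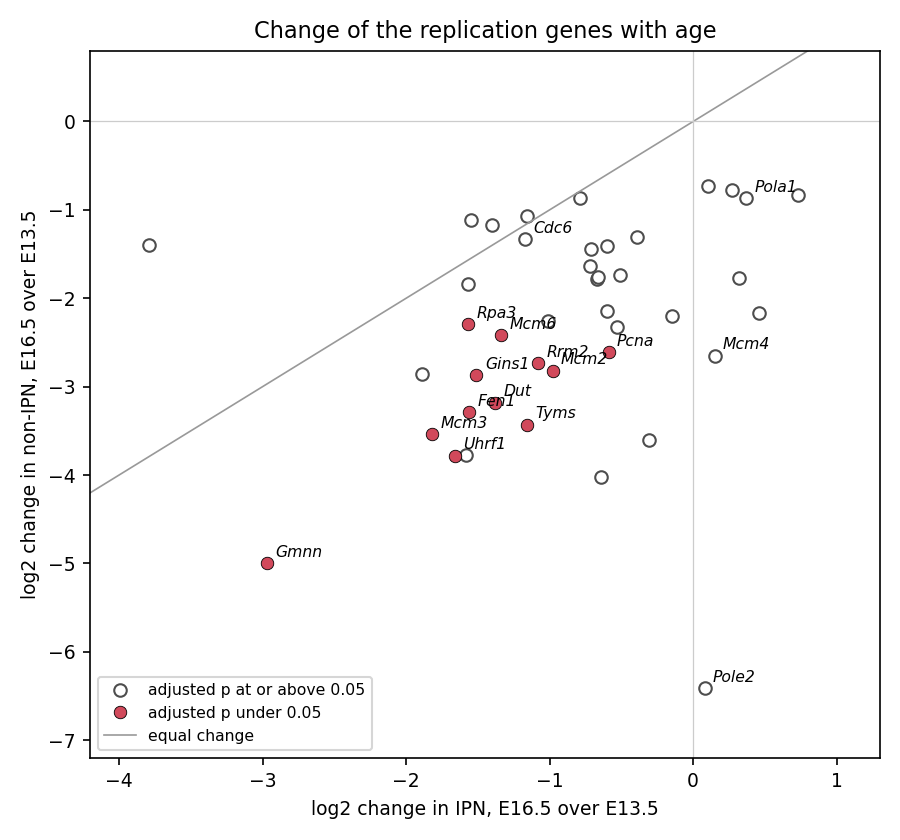
Log2 change from E13.5 to E16.5 in IPN (x axis) and in non-IPN (y axis) for the 42 replication genes, with the 12 genes called in the fit of all 6 libraries filled. All points lie below 0 on the y axis, and the gray line marks an equal change in both populations.

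The age calls rested on few libraries. Without the non-IPN E13.5 library 2 members were called (Dut and Rpa3) and the median was -0.75, with 36 of 42 negative. Without the IPN E13.5 library 26 were called, without the IPN E16.5 library 5, and without the non-IPN E16.5 library or without the E15.5 pair none (16 and 27 at an unadjusted p under 0.05). With no replicate block for population none was called (22 unadjusted). With 1 library left in an arm, its spread is assumed to be that of the others.

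The third comparison asked whether the difference between the populations moved with embryonic day. The IPN minus non-IPN difference rose with day for 4 of 42 members (9.52%), against 0.624% of all genes, and fell for none, against 0.68%. They were Mcm4, Pcna, Rfc1 and Pole2. At an unadjusted p under 0.05 the difference rose for 21 and fell for 0. The median slope of the members was 0.46 log2 units per day beside 0.03 over all genes, and 38 of 42 members had a higher ratio at E16.5 than at E13.5 (90.5%), against 52.0% of all genes. In 27 members (64.3%) the ratio was higher on each later day, against 21.0% of all genes. In ppm these counts were 38 (90.5%, against 51.1%) and 21 (50%, against 21.1%).

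Mcm4 was at 46.7, 30.6 and 54.8 ppm in IPN, by day, and at 290, 40.2 and 51.3 in non-IPN. Its log2 ratio went from -2.49 to -0.34 and 0.31, a slope of 0.95 ± 0.16 per day (adjusted p = 0.0113). Pcna had ratios of -1.66, -0.18 and 0.35 (slope 0.68 ± 0.15, adjusted p = 0.0448), with 69.1 ppm in IPN and 81.2 in non-IPN at E15.5. For both genes the populations were apart at E13.5 and near each other on the later days.

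Rfc1, the large subunit of the clamp loader, was at 23.3, 41.2 and 34.0 ppm in IPN and at 63.4, 38.3 and 15.7 in non-IPN. Pole2, an accessory subunit of polymerase epsilon, was at 3.55, 3.1 and 3.97 in IPN and at 30.2, 2.84 and 0.318 in non-IPN. In both genes the order of the populations turned between E13.5 and E16.5, and for Pole2 the IPN level stayed between 3.1 and 3.97 while the non-IPN level ranged widely at low values. The slopes were 0.86 ± 0.18 for Rfc1 and 2.07 ± 0.45 for Pole2 (adjusted p = 0.0366 each). This model leaves 1 residual degree of freedom, and its E13.5 ratio rests on the non-IPN library that stood apart; with that library left out, the slope could not be tested. Radial glia genes moved the same way, with Nes, Slc1a3 and Gli3 called of 12, as did 7 of 11 red blood cell genes, and their part in the slopes was not tested. Among genes with a mean of at least 1 or 10 ppm, 2 of the 4 were called (Mcm4 and Rfc1).

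Of 49 further replication genes, from origin recognition to histone chaperones, 2 (4.08%) were called lower in IPN, beside 2.41% of all genes, and none higher: Wdhd1, which ties polymerase alpha to the helicase (-2.03 ± 0.35, adjusted p = 0.00973), and Cdca7, which works with the chromatin remodeler Hells (-2.17 ± 0.39, adjusted p = 0.0118). Wdhd1 was at 9.37, 9.1 and 7.32 ppm in IPN and at 53.6, 35.3 and 30.1 in non-IPN, so the IPN libraries lay below the non-IPN libraries on every day. The median difference of the 49 was -0.21. With age 5 of them (10.2%, beside 2.26% of all genes) fell and none rose (median -0.78): Asf1b, a histone chaperone (-4.54 ± 0.71, adjusted p = 0.00753), the helicase cofactor Cdc45 (-3.28 ± 0.82, adjusted p = 0.0442), Clspn, Tipin and Dtymk. The difference between the populations rose with day for 2 (4.08%, beside 0.624% of all genes), Timeless (0.98 ± 0.19 per day, adjusted p = 0.023) and Hells (1.1 ± 0.24, adjusted p = 0.0367).

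Among 31 regulators of the G1 to S transition, 1 (3.23%, beside 2.41% of all genes) was called lower in IPN, Rbl1, a pocket protein that binds E2F (-1.49 ± 0.33, adjusted p = 0.0336). With age 6 (19.4%, beside 2.26% of all genes) fell, among them the E2F family members E2f2 (-4.86 ± 0.97, adjusted p = 0.0184) and E2f8 (-4.52 ± 0.88, adjusted p = 0.0167), Rbl1 (-2.58 ± 0.4, adjusted p = 0.00713) and Skp2 (-1.85 ± 0.37, adjusted p = 0.0188). At E16.5 E2f2 was at 0.0 ppm in IPN and 0.318 in non-IPN, and E2f8 at 0.752 and 0.477. The sizes of these changes therefore rest on low values. The Cdk inhibitor Cdkn1b, known for keeping cells out of the cycle, was the 1 that rose with age (3.23%, beside 3.76% of all genes; 1.31 ± 0.33, adjusted p = 0.0467), from 16.6 to 34.9 ppm in IPN and from 9.22 to 32.1 in non-IPN. The difference between the populations fell with day for 1 regulator (3.23%, beside 0.68% of all genes), Cdkn1c (-0.76 ± 0.17 per day, adjusted p = 0.0414). Cdkn1c was at 40.2, 87.2 and 41.5 ppm in IPN by day and at 14.7, 112 and 73.7 in non-IPN. No regulator was called for a rise with day. Of 11 S phase checkpoint genes limma called none in any of the 3 comparisons, with medians of -0.38 between populations and -0.71 with age. At an unadjusted p under 0.05 it would be 3 between populations, 5 with age and 4 for population by day. The shares of all genes were 13.6%, 21.6% and 16.7%.

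Mitosis genes, which act after S phase, fell with age: of 24, 20 (83.3%, beside 2.26% of all genes) were called lower at E16.5 (median -2.89), and 1 (4.17%, beside 2.41%), Mki67, was called lower in IPN (-1.32 ± 0.23, adjusted p = 0.0109). Mki67 was at 285, 49.8 and 94.4 ppm in IPN and at 974, 154 and 187 in non-IPN. The mitosis list had median log2 ratios of -1.3, -1.08 and -0.16 by day, beside -1.47, -0.27 and -0.05 for the replication genes. The difference between the lists was not tested. Eomes, the reporter gene of the sort, was at 437, 102 and 98.4 ppm in IPN and at 214, 72.5 and 72.0 in non-IPN, and fell with age (-1.98 ± 0.27, adjusted p = 0.00437). Between the populations it did not pass in limma (0.79 ± 0.22, adjusted p = 0.101), though IPN was the higher library on each day.

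**Figure D5:**
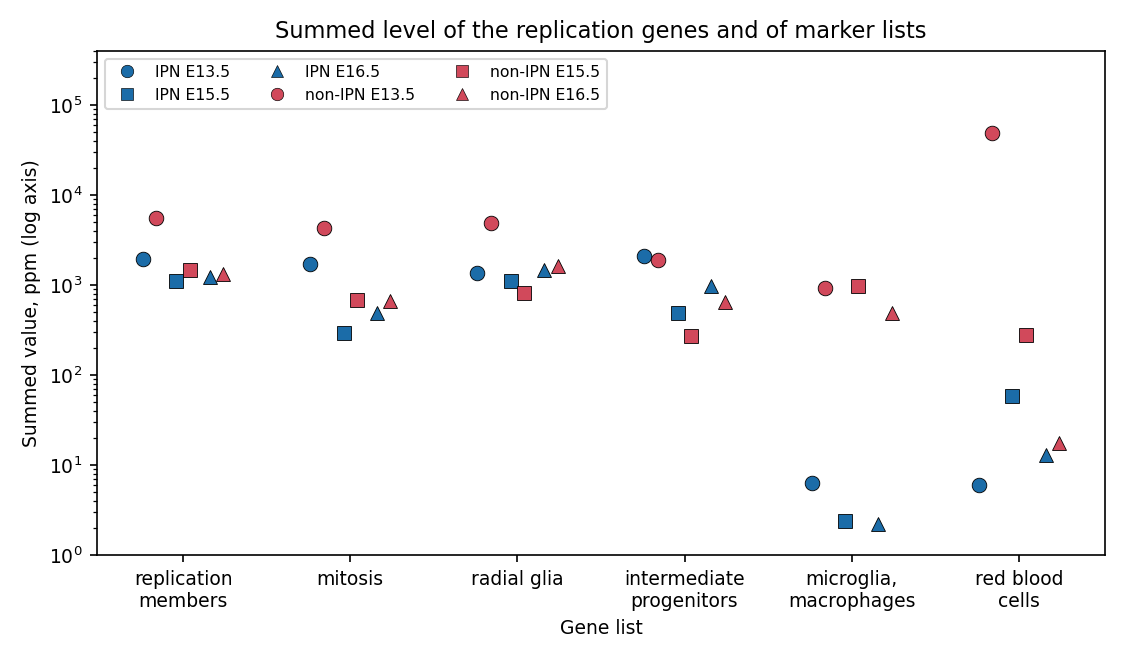
Summed value in ppm (log axis) of the 42 replication genes and of 5 other gene lists in each library, with IPN in blue, non-IPN in red and the day by marker shape. The E13.5 non-IPN library is the highest for the replication, mitosis, radial glia and red blood cell lists.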

How the data were processed

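RNA sequencing of 6 libraries was analysed. The submitters' processing notes list edgeR, TopHat 1.2.0, CASAVA 1.9 and SAMtools 0.1.18, and the build mm9, without roles. The annotation was not given in the sources used here. The deposited values are whole numbers per gene, treated as a signal scaled from counts: upper quartiles were nearly equal within each kind of library (438 to 444 with amplification, 1501 and 1502 without) although totals differed. Scaled values keep no depth, so no counting interval was computed. Files were joined by symbol. Of 20373 rows, 6 rows of 3 repeated symbols were dropped, and 19561 genes above 0 in at least 1 library were tested.

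Differences were tested with limma 3.58.1 (trend and robust) in R 4.3.3 on log2(value + 1), which understates changes of low genes, with Benjamini-Hochberg adjustment over all genes and a threshold of 0.05. The model had population and age as factors (2 residual degrees of freedom, median prior 8.3). A second model added population by day (1 residual, median prior 14.5). Age was a block: per the labels both populations were sorted from cortices of embryos of that day, though not stated to be the same embryos, and deviations of same-day libraries from their population mean correlated at 0.63, 0.87 and 0.47 over 12831 genes. The labels name no separate animals, so p-values measure the spread between these libraries, which may be technical. The script was tested on simulated data in which every gene had the same spread. With a log2 change of 1 it recovered 8 of 200 changed genes between populations and 1 with age. For population by day, with a change of 1 per day, it was 60. With a log2 change of 2 the numbers were 195, 140 and 200. Changes near 1 were thus mostly missed there. Members and lists were chosen with earlier results of these data known. Text names members called in any comparison, the member with the highest mean of each role, and a selection of genes from other lists, not always their largest calls. Further members named with values were chosen after these were seen. The reference build differs from mm9, so it gave only names and promoter letters. No 2 libraries were identical (correlations 0.812 to 0.959). Reads of Pcna and Tyms can be shared with pseudogene copies, and strand use in counting is not given, so members that overlap other genes are uncertain.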

Additional observations from a re-analysis of the deposited data

Results flagged for a closer look

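For 4 replication genes the IPN minus non-IPN difference changed with embryonic day by the interaction term of the limma model. The slopes in log2 units per day were 0.95 for Mcm4, 2.07 for Pole2, 0.68 for Pcna and 0.86 for Rfc1. In each the ratio at E13.5 includes the non-IPN library that also held the hemoglobin reads.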

How the results depend on the processing

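Signs of the 20 calls on members held under every alternative run, while each call itself was lost under at least 4 alternatives. For members lower in IPN (4), the count was 1 with median-of-ratios scaling, 0 with a pseudocount of 16 (12 at an unadjusted p under 0.05), 2 among genes with a mean of at least 10 ppm, and 0 with limma without trend and robust (8 unadjusted). With no replicate block, that is without the age pairing, it was 0 (0 unadjusted), and 0 again with scaling to the column total or by median of ratios (2 and 1 unadjusted). Leaving out 1 pair gave 0 to 3. For members lower at E16.5 (12), the count was 1 with a pseudocount of 16, 0 with limma without trend and robust (20 unadjusted), 0 with no replicate block for population (22 unadjusted), and 0 to 26 when a pair or library was left out. For members whose difference rose with day (4), it was 9 with scaling to the column total, 11 with median-of-ratios scaling, 10 with totals without hemoglobin genes, 0 with a pseudocount of 16 (20 unadjusted), 2 with either filter on low values, 0 with limma without trend and robust (8 unadjusted) and 0 with days coded by their order (18 unadjusted). An alternative chosen after seeing the data, limma without trend and robust among genes with a mean of at least 10 ppm, gave 1, 6 and 0 (19 unadjusted). Calls over all genes moved too. For a rise with day, 122 genes were called in the fit reported above. It was 726 with scaling to the column total, 878 by median of ratios, 779 without hemoglobin genes and 3 with a pseudocount of 16. That pseudocount also took genes called lower in IPN from 472 to 179, and lower at E16.5 from 442 to 68. Called genes numbered 0 with limma without trend and robust, and 0 with no replicate block and no rescaling. The cause was not tested. Scaling to the column total moved the median population difference of all genes from -0.02 to -0.15. Low values limit Pole2, Tk1, Mcm10 and Gins3.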
